A study of Mus musculus with 24 samples.

Results

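The 8 WT libraries of a study of spinocerebellar ataxia type 1 (SCA1) were examined on their own, out of 24 cerebellar RNA-seq libraries in all. SCA1 is caused by an expanded glutamine tract in ATXN1, and the other 16 libraries come from mice that carry the expanded allele, an S776A change in Atxn1 or both (genotypes sca1, sca1-s776a, double and 2q-s776a, 4 libraries each). The WT mice were 6 weeks old, carried no altered Atxn1 allele by their label and have no stated treatment, and the study's colony was kept on a C57BL/6J background. Each library is bulk RNA from cerebellar tissue, and the labels give neither the sex nor a litter. Libraries were numbered WT 1 to WT 8 in the order of their records, and a number carries no other meaning. Nothing in the labels ties 2 libraries to the same mouse, but whether they share a litter or an extraction is not stated, so p-values measure the spread between these libraries.

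The WT libraries were split by the share of fragments that mapped to 1 place in the genome but overlapped no annotated exon. STAR, the aligner, counts such fragments as N_noFeature, and they hold fragments from introns and from between genes. The share was 9.83%, 11.2%, 11.5% and 10.6% in WT 1 to WT 4, and 5.23%, 5.63%, 6.31% and 5.92% in WT 5 to WT 8. The limit of 8% of all fragments thus fell in the gap between WT 1 at 9.83% and WT 7 at 6.31%, with 4 libraries on each side. This share chose the sets, so it is given as a description with no test. The study sequenced its 24 libraries in 2 batches but its text does not list the batch of each one, and the labels give none, so a batch and any other difference between the sets cannot be told apart.

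The cerebellar cortex is built from very numerous granule cells, which are small glutamatergic neurons, and from a single layer of large Purkinje cells, whose inhibitory axons are the only output of the cortex. Molecular layer interneurons, Golgi cells and unipolar brush cells make up the local circuit. Bergmann glia are the astrocytes that wrap Purkinje cell dendrites, and oligodendrocytes myelinate the axons. In bulk RNA, fewer cells of a type and less RNA per cell cannot be told apart.

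Depth was high in every WT library. Fragments numbered 85092267 to 94560401 in WT 1 to WT 4 and 98226846 to 109595440 in WT 5 to WT 8, of which 64233070 to 71823279 and 79321927 to 88430180 were counted on genes. More genes reached 10 counts in the set with fewer fragments, with 20437 to 21182 genes against 19911 to 20298. The fate of the remaining fragments also differed between the sets. Unmapped fragments were 4.89% ± 0.323 (SD, n = 4) in WT 1 to WT 4 and 4.17% ± 0.204 in WT 5 to WT 8, and multimapping fragments 3.33% ± 0.0871 and 4.02% ± 0.322. Ambiguous fragments, which overlap more than 1 gene, were 5.17% ± 0.0737 and 5.29% ± 0.0832. The 100 most counted genes of a library took 15.2% ± 0.127 and 16.5% ± 0.416 of its gene counts. None of these 4 measures overlapped between the sets, each with p = 0.029 by a two-sided exact permutation test, the smallest p that 4 against 4 libraries allow, and p = 0.036 after Benjamini-Hochberg adjustment over 5 measures. The mitochondrial genome, the last of the 5, took 3.24% ± 0.158 and 3.95% ± 0.431 of gene counts, with WT 6 at 3.35% inside the range of the other set (p and adjusted p = 0.057, exact permutation test). For ambiguous fragments the direction depends on the denominator: as a share of the fragments counted on genes it was higher in WT 1 to WT 4, by 0.272 percentage points. On that denominator, which leaves out the share that chose the sets, multimapping no longer passed (p = 0.086, exact permutation test).

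**Figure D1:**
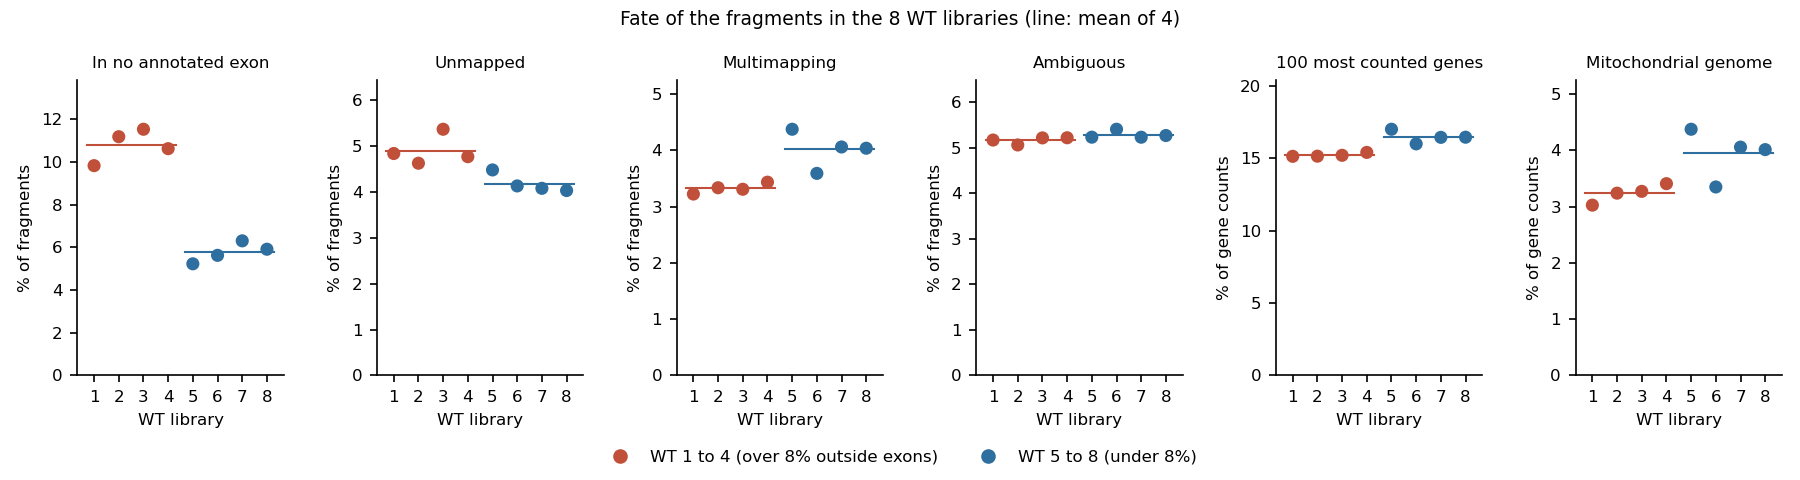
Each panel plots 1 share (%, y axis from 0) in WT libraries 1 to 8 (x axis). Points are libraries, colored by set, and lines are the means of 4 libraries. WT 1 to WT 4 lie between 9.83% and 11.5% for fragments outside annotated exons, and WT 5 to WT 8 between 5.23% and 6.31%.

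The most counted RNAs of the WT cerebellum came from myelin, Purkinje cells, synapses and mitochondria. Levels are CPM, the counts of a gene relative to all gene counts of its library on the usual scale, with the library total adjusted by a TMM factor. They compare 1 gene across libraries, not different genes. Among nuclear genes Mbp, a main protein of myelin, stood first with 3608 ± 425 CPM (SD, n = 8). Itpr1, the calcium release channel that is very abundant in Purkinje cells, had 2852 ± 811 CPM. Ckb, the brain creatine kinase, had 2637 ± 332 CPM and Snap25, a protein of synaptic vesicle release, 2473 ± 386 CPM. First place changed with the set. Itpr1 had 3567 ± 371 CPM and Mbp 3238 ± 236 CPM in WT 1 to WT 4 (SD, n = 4), against 2136 ± 176 and 3978 ± 29.6 CPM in WT 5 to WT 8. Over the 8 libraries, each of these 4 genes differs from the next named here by less than the larger of their SDs, so neighbors in this order do not differ beyond their spread. Aldoc, Adcy1, Sparcl1, Car8, Psap, Cbln3 and Sptan1 were also among the 15 most counted nuclear genes, from 2139 ± 217 CPM for Aldoc to 1653 ± 192 CPM for Sptan1. When the 15 were drawn from each set separately, 11 were shared. The mitochondrial mRNA mt-Co1 exceeded all of them with 13726 ± 2370 CPM, and the 13 mitochondrial protein genes took 2.61% to 3.60% of gene counts.

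Between genes, levels are comparable only per length, so counts were also divided by the exon length of the gene and scaled to equal totals (TPM, computed here). On that scale Calm2, a calmodulin gene, had 3732 ± 170 TPM (SD, n = 8), Ckb 3460 ± 321 TPM and Sparcl1, a matrix protein made by astrocytes, 2602 ± 100 TPM. Aldoc, a glycolytic enzyme of Bergmann glia and of Purkinje cell stripes, had 2494 ± 197 TPM, and Pvalb, the calcium buffer of Purkinje cells and molecular layer interneurons, 2313 ± 222 TPM. Apoe, the lipid carrier made by astrocytes, had 2352 ± 92.2 TPM. Only 4 genes were among the 15 highest on both scales. Among these 15 were also 2 features annotated as miRNA genes of 57 bases, Gm23935 and Gm24270. Gm23935 reached 29325 ± 16707 TPM from 432 CPM, so its rank rests on its short length.

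Markers of cerebellar neurons and glia were abundant in every WT library. Summed over each list, granule cell markers reached 9269 ± 628 CPM (SD, n = 8; 12 genes), oligodendrocyte markers 8869 ± 1565 CPM (10 genes) and Purkinje cell markers 8466 ± 752 CPM (11 genes). Bergmann glia and astrocyte markers summed to 3084 ± 266 CPM, molecular layer interneuron markers to 1096 ± 76.8 CPM and unipolar brush cell markers to 594 ± 127 CPM. The unipolar brush cell sum rests on Calb2 at 564 CPM, against 28.4 CPM for Eomes, 1.66 CPM for Lmx1a and 0.216 CPM for Grp. Golgi cell markers reached 178 ± 13.7 CPM, endothelial markers 201 ± 26.4 CPM and microglia markers 123 ± 9.64 CPM. Per length the order of the lists was not the same. Granule cell markers summed to 7902 ± 377 TPM, oligodendrocyte markers to 6073 ± 1009 TPM and Purkinje cell markers to 5451 ± 319 TPM, while the molecular layer interneuron list, which holds Pvalb, reached 2554 ± 209 TPM and passed the Bergmann glia and astrocyte list at 2020 ± 126 TPM. Lists sum different numbers of genes of different strength, so they do not measure cell numbers.

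Tissue from neighboring regions left little signal. The 9 hindbrain genes outside the cerebellum, which include the Hox genes and Chat, summed to 0.110 to 1.17 CPM, and the 3 midbrain and raphe genes to 0.0389 to 0.122 CPM. None of these 12 genes passed the filter on low counts. Of 5 forebrain genes 2 passed it, among them Neurod6 at 6.01 to 11.0 CPM.

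**Figure D2:**
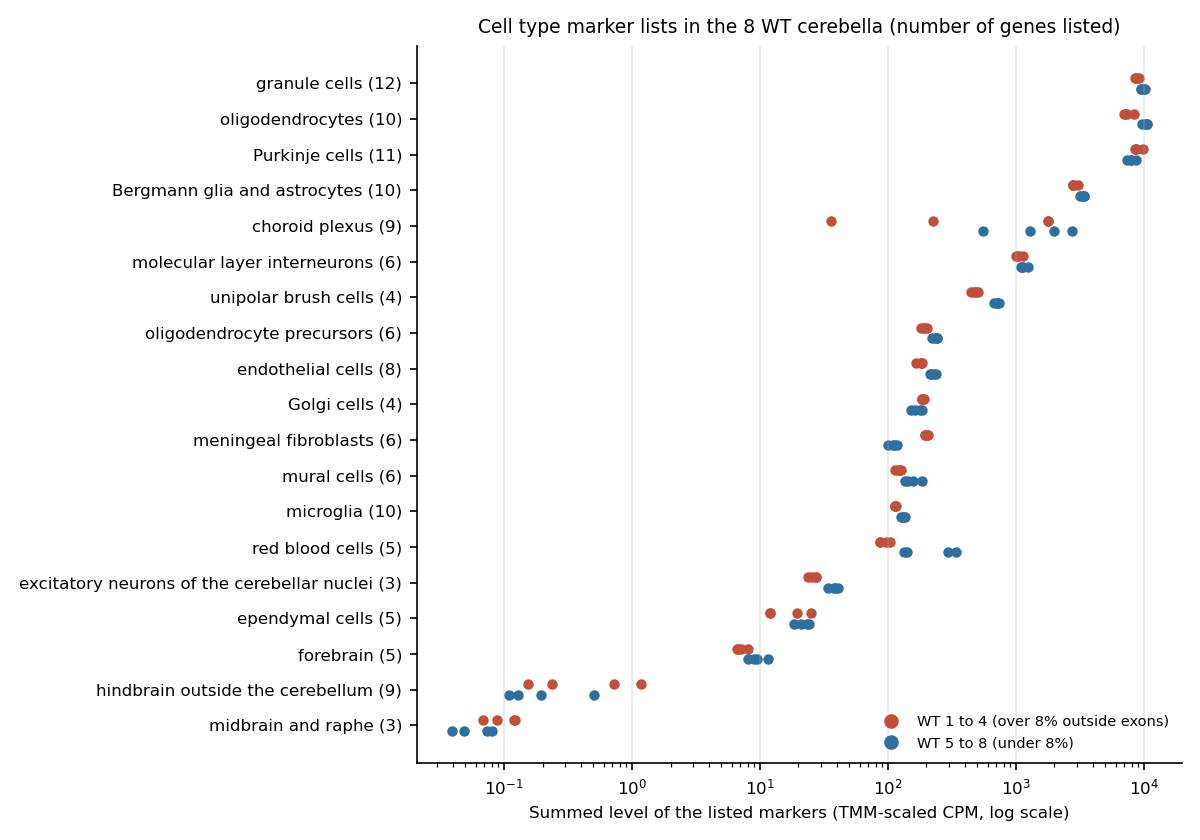
Summed level of each marker list (TMM-scaled CPM, log axis) in the 8 WT libraries, 1 point per library, colored by set, with the number of genes listed in parentheses. Granule cell, oligodendrocyte and Purkinje cell lists lie highest, near 8466 to 9269 CPM on average, and choroid plexus markers spread from 35.6 to 2743 CPM.

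Choroid plexus was the cell type whose RNA varied most from mouse to mouse. This epithelium of the ventricles makes cerebrospinal fluid, and Ttr, the thyroid hormone carrier it secretes, is its leading transcript. Ttr was at 178.9, 9.20, 1594 and 1597 CPM in WT 1 to WT 4 and at 2616, 497, 1220 and 1873 CPM in WT 5 to WT 8. WT 2 was lowest and WT 5 highest, and the sets overlapped between 497 and 1597 CPM. Kl, a co-receptor made by the same epithelium, was at 5.98, 1.68, 58.0 and 57.7 CPM and at 27.4, 7.40, 14.7 and 29.8 CPM, with WT 2 again lowest. All 9 listed markers had their lowest value in WT 2 and their second lowest in WT 1 or WT 6. The summed list spanned a 77.0-fold range, and none of the 9 genes was called between the sets by edgeR, none by DESeq2 and none at an unadjusted p under 0.05. Ttr differed by a log2 difference of -0.88 ± 1.35 (SE), with an adjusted p of 0.63.

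**Figure D3:**
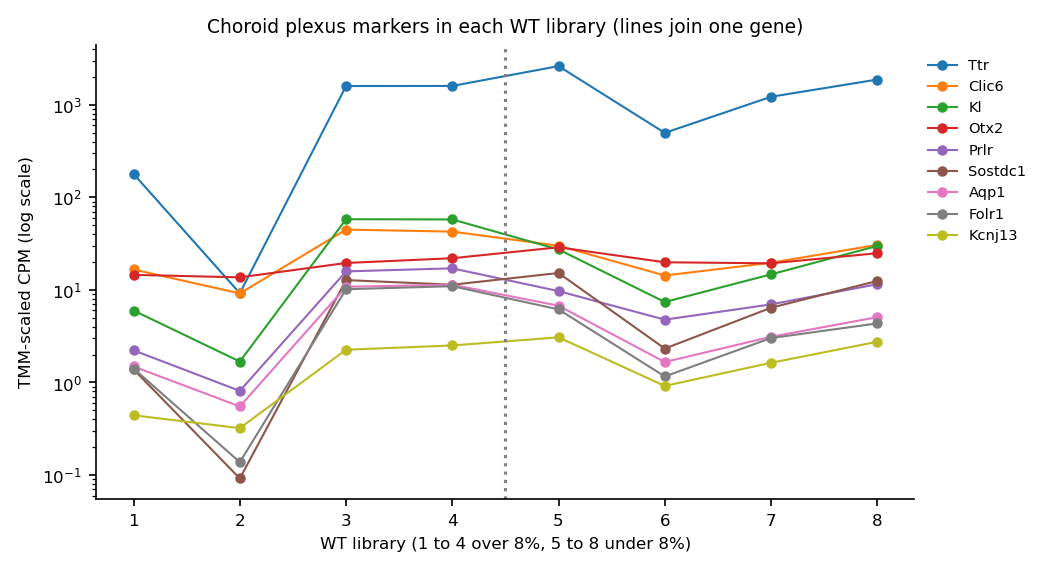
TMM-scaled CPM (log axis) of 9 choroid plexus markers in WT libraries 1 to 8, with lines joining the values of a gene and a dotted line between the sets. Ttr spans 9.20 to 2616 CPM, and every marker is lowest in WT 2.

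Variation within the sets was otherwise small. The dispersion of edgeR, given as a biological coefficient of variation (CV) within the sets, had a median of 6.57% over 10216 genes with a mean of at least 10 CPM, and 10% of these genes were above 8.60%. This CV is moderated, that is drawn toward the values of other genes, so it is not the observed SD over the mean of a gene. The 10 most variable were 5 sex-linked genes (Eif2s3y, Kdm5d, Xist, Ddx3y and Uty), 4 genes expressed in choroid plexus (Ttr, at a CV of 118%, Kl, Slc15a2 and Htr2c), and Nr4a3, an immediate early gene. Slc15a2, a peptide transporter, did not follow Ttr, with its lowest value of 5.63 CPM in WT 3 and its highest of 53.2 CPM in WT 4. Xist, which is transcribed from the inactive X chromosome, was at 450 and 527 CPM in WT 6 and WT 7 and at 0.287 to 0.857 CPM in the other 6 libraries. Ddx3y of the Y chromosome was at 0.134 and 0.0247 CPM in WT 6 and WT 7 and at 85.2 to 100.2 CPM in the others. Both libraries with Xist RNA were thus in the set under 8%. Nr4a3 ranged from 4.14 to 57.4 CPM, with an overlap of the sets. Activity genes also varied, with Fos at 12.9 to 54.0 CPM and Dusp1 at 29.6 to 119 CPM. By this moderated CV the steadiest genes included Dlst, an enzyme of the citric acid cycle, at 5.15%. It was at 156.8 to 162 CPM in WT 1 to WT 4 against 184.7 to 185.8 CPM, with no overlap. Another was Plekha1, whose 8 values lay between 134.5 and 143 CPM.

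Between the sets, 2942 genes were higher in WT 1 to WT 4 and 636 lower, of 20593 genes tested (edgeR quasi-likelihood test, adjusted p under 0.01 and an absolute log2 difference over 0.5). These are 14.3% and 3.09% of the genes tested, so most of what follows is to be read against a background of 17.4% of genes called. At an adjusted p under 0.05 with no limit on size, 10830 genes (52.6%) differed, 5516 of them higher and 5314 lower. At an unadjusted p under 0.05 it was 57.9% of genes, 29.0% higher and 28.9% lower, and counts at that p in the lists are to be read against these shares. The median log2 difference of all genes tested was -0.01. Genes called higher were of low level, with a median of 1.03 CPM, against 4.08 CPM for genes called lower and 9.65 CPM for all genes tested. A positive difference always means a higher value in WT 1 to WT 4.

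Among called genes with a mean of 10 CPM or more whose sets did not overlap, the largest change was in Col7a1, the collagen of anchoring fibrils. It was at 16.6, 20.9, 19.2 and 20.9 CPM in WT 1 to WT 4 and at 1.19, 1.08, 1.58 and 1.58 CPM in WT 5 to WT 8, a log2 difference of 3.84 ± 0.12 (SE, adjusted p = 7.61e-11). The mean is over all 8 libraries, and Col7a1, at 10.4 CPM, reached the limit only through WT 1 to WT 4. The same holds for Col5a1 and AI480526 below, so the limit lets in genes through the set where they are high. Col5a1, a fibrillar collagen, was at 40.7 to 45.7 CPM against 6.47 to 8.29 CPM and had the lowest adjusted p of all, 2.90e-11. Leng8, an RNA-binding protein gene, was at 425, 446, 417 and 379 CPM against 64.2, 70.4, 94.0 and 81.3 CPM, a log2 difference of 2.43 ± 0.11. The groups lay far apart in each of the 3 genes. Zfhx2, a homeobox transcription factor gene, differed by 2.37 and the long noncoding RNA AI480526 by 2.39. Also among the 8 lowest adjusted p values were Coro6, a coronin of the actin cytoskeleton (1.80), Aifm3 (1.48), Akap8l, a nuclear anchoring protein (1.31), Ssh3, a cofilin phosphatase (1.37), Csf2ra, a cytokine receptor chain (1.60), and Myh6, a cardiac myosin (2.29). No library of WT 5 to WT 8 reached any library of WT 1 to WT 4 for these genes, which the rule that chose them requires.

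Many collagen genes were called higher, in a list drawn up after high members had been seen, so the count describes the list and supports nothing further. Over all genes tested, 14.3% were called higher. Of 43 collagen chain genes tested, 22 were called higher and none lower (edgeR; 22 and none by DESeq2; at an unadjusted p under 0.05, 33 higher and 1 lower), with a median log2 difference of 0.65. Col1a1, the main collagen of fibroblasts, was at 69.7, 70.8, 66.7 and 60.8 CPM against 19.6, 23.5, 20.2 and 24.2 CPM, a log2 difference of 1.62 ± 0.07 (adjusted p = 1.10e-09). Col1a2 differed by 0.82. Values of other meningeal fibroblast genes are given beside the collagens, and the cause of the difference was not tested. Dcn, a proteoglycan of meningeal fibroblasts, was at 23.6 to 25.4 against 20.9 to 28.4 CPM, and Lum at 3.09 to 4.32 against 2.78 to 5.36 CPM, so both overlapped between the sets. Of 6 meningeal fibroblast genes, 4 were called higher (Col1a1, Col1a2, Igf2 and Slc6a13), and 3 by DESeq2, without Slc6a13. Slc6a13 was at a log2 difference of 0.51 and lost its call without WT 2, WT 4, WT 7 or WT 8, and Igf2 at 0.74 lost it without each of WT 1, WT 2, WT 3, WT 5, WT 6 and WT 7.

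Long noncoding RNAs that stay in the nucleus were higher in WT 1 to WT 4, where 14.3% of all genes tested were called higher. Of 8 listed, 7 were called higher and none lower (7 and none by DESeq2; 8 and none at an unadjusted p under 0.05), with a median log2 difference of 1.28. Meg3, an imprinted RNA of neurons, was at 2285, 2507, 2346 and 2326 CPM against 532, 568, 766 and 649 CPM, a log2 difference of 1.91 ± 0.10 (adjusted p = 4.87e-08). Malat1, an RNA of nuclear speckles, was at 1448, 1709, 1904 and 1986 CPM against 452, 540, 753 and 493 CPM, a log2 difference of 1.65 ± 0.19 (adjusted p = 2.87e-04). Neither gene overlapped between the sets. Neat1, the scaffold of paraspeckles, differed by 1.42, Snhg11 by 1.30, Kcnq1ot1 by 1.27, Mirg by 1.04 and Miat by 0.93. Rian, a neighbor of Meg3 in the same imprinted cluster, differed by 0.25 and was not called.

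Some genes of splicing regulators were called higher, in 2 short lists chosen after their values were seen. The share called higher over all genes tested was 14.3%. SR proteins bind exons and guide the spliceosome, and CDC-like kinases phosphorylate them. Of 11 SR genes tested, 5 were called higher and none lower (4 and none by DESeq2; 6 and none at an unadjusted p under 0.05). Srsf5 was at 480, 489, 512 and 510 CPM against 190, 203, 234 and 224 CPM, a log2 difference of 1.23 ± 0.06 (adjusted p = 1.31e-09). Srsf11, Srsf6, Srsf1 and Srsf2 differed by 0.61, 0.57, 0.56 and 0.51, while Srsf3, at 220 to 251 against 228 to 239 CPM, overlapped. Of 4 CDC-like kinases, Clk4 (0.85), Clk2 (0.65) and Clk1 (0.60) were called higher, and Clk3 differed by 0.33.

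The rate of calls differed with the kind of gene. Of 15404 protein-coding genes, 8.66% were called higher and 2.84% lower. Of 1008 genes of type TEC, loci that still await experimental proof, 59.0% were called higher and 0.298% lower, and of 107 sense intronic transcripts 67.3% were higher. Antisense genes were called higher in 35.9% of 977 cases, lincRNAs in 21.2% of 907 and snoRNAs in 40.0% of 65. Processed pseudogenes were an exception, with 12.2% higher and 14.0% lower of 1176. They share sequence with their parent genes, and fragments that fit more than 1 place are set aside as multimapping. Whether this bears on their rate of calls was not tested. Strand was not kept, with 1.00 fragments on one strand for each on the other, so a fragment over an exon of an antisense gene was counted for it whichever strand it came from, unless it also met an exon of the partner and was set aside as ambiguous. Reads of such a pair cannot be told apart by strand.

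Position within other genes went with the rate of calls. The share that chose the sets holds fragments from introns. These rates and that of sense intronic transcripts are thus not independent of the split and are given as a description. TEC genes that lay wholly inside the body of a protein-coding gene were called higher in 73.3% of 694 cases, against 27.4% of 314 TEC genes elsewhere. Antisense genes were higher in 52.5% of 434 cases inside and 22.7% of 543 elsewhere, lincRNAs in 47.6% of 84 and 18.5% of 823, and processed pseudogenes in 25.8% of 396 and 5.38% of 780. MiRNA genes were called higher in 54.5% of 55 cases inside and 46.7% of 30 elsewhere. Processed pseudogenes were called lower in 37 of 396 cases inside and 128 of 780 elsewhere. For the other types named in this paragraph, at most 7 genes were called lower at either position.

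Among 85 miRNA genes tested, 44 were called higher and 1 lower, against 14.3% and 3.09% of all genes tested. The counts are of fragments from long RNA libraries over the hairpin locus and so do not measure the mature miRNA. Of 9 loci called with a mean of at least 1 CPM, the RefSeq table held mature sequences for 5, which show the loci the counts fall on. They were chosen after the values were seen, and their 7 mature sequences follow 5′ to 3′ as RefSeq gives them for GRCm38.p6, with the seed (bases 2 to 8) in capitals.
mmu-miR-186-5p: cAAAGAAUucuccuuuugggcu
mmu-miR-186-3p: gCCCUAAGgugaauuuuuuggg
mmu-miR-5125: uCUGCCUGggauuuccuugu
mmu-miR-421-5p: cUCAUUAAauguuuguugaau
mmu-miR-344-3p: uGAUCUAGccaaagccugacugu
mmu-miR-344-5p: aGUCAGGCuccuggcuagauuccagg
mmu-miR-6236: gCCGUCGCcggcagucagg
No seed was shared among the 7. Mir186 (mmu-miR-186-5p at chr3:157544285-157544306, plus strand) lies inside Zranb2, the gene of a zinc finger splicing protein, and Mir5125 (chr17:23823339-23823358, plus strand) inside Srrm2, the gene of a large splicing protein. Mir5125 was at 12.9, 13.8, 10.1 and 9.51 CPM against 1.07, 1.33, 2.48 and 1.70 CPM, a log2 difference of 2.82 ± 0.26 (adjusted p = 3.85e-05). Mir186 was at 5.41, 6.53, 5.99 and 5.63 CPM against 2.71, 2.65, 3.49 and 3.13 CPM, a log2 difference of 0.98. The sets did not overlap at either locus.

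Within protein-coding genes, the rate of calls went with exon number. Genes were put in 5 equal groups by each feature. In the group with 16 to 347 annotated exons, 17.0% were called higher and 0.260% lower. In the group with 1 to 3 exons, 5.65% were higher and 5.55% lower. Genes in the top group of both exon length and GC content were called higher in 37.0% of 257 cases and lower in none (median log2 difference 0.37), while genes short and rich in GC were higher in 7.85% of 994 cases and lower in 7.65%. The rate also went with level, with 15.2% of the lowest group by mean CPM called higher and 5.55% of the highest. Genes in these groups overlap, so the features were not separated, and their part in the differences was not tested.

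**Figure D4:**
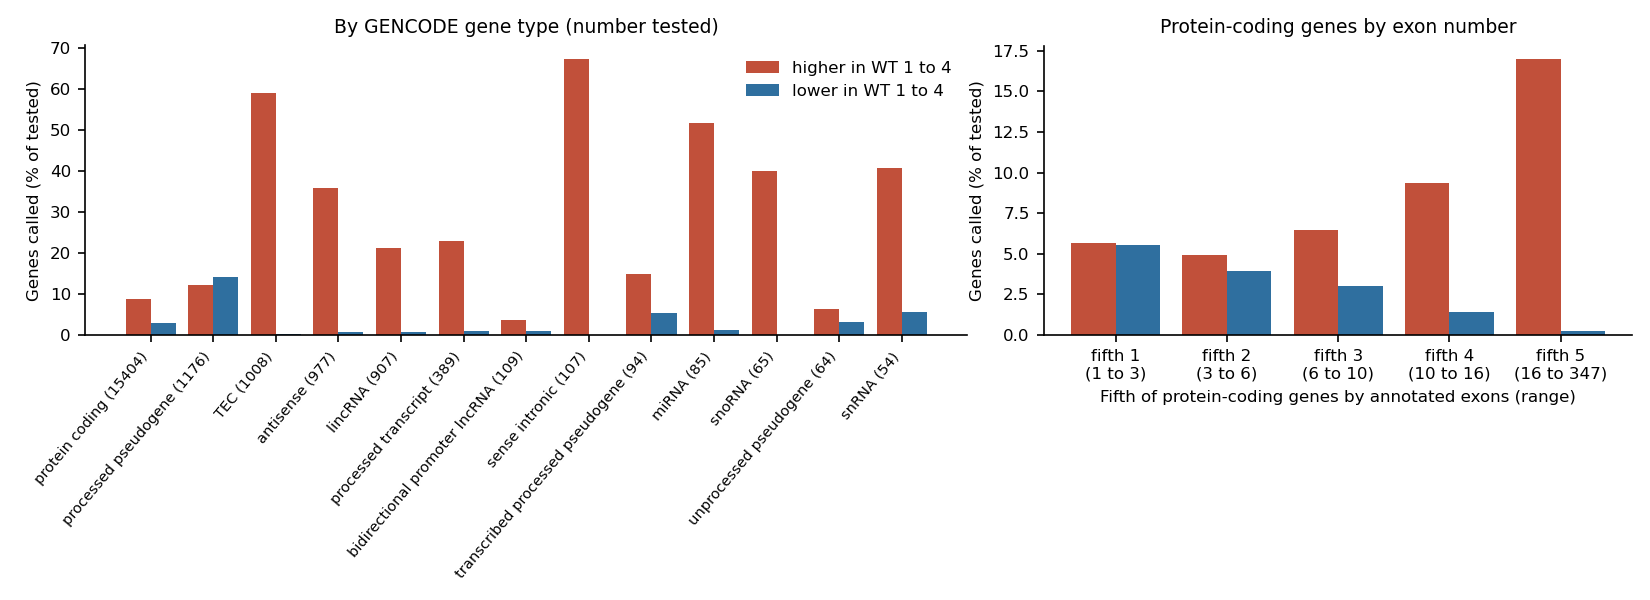
Share of tested genes called higher (red) or lower (blue) in WT 1 to WT 4 (%, y axis), by GENCODE gene type with at least 50 genes tested (left) and by 5 equal groups of exon number for protein-coding genes (right). Sense intronic and TEC genes reach 67.3% and 59.0% higher, and genes with 16 to 347 exons 17.0%.

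Myelin genes were the cell type list with the most calls in the other direction, against 3.09% of all genes called lower. Of 10 oligodendrocyte genes, 7 were called lower in WT 1 to WT 4 and none higher (7 and none by DESeq2; 10 and none at an unadjusted p under 0.05), and all 10 had groups that did not overlap in this direction, which held for 23.6% of all genes tested. The median log2 difference was -0.60. Mog, a protein of the outer myelin surface, was at 78.7, 75.4, 72.7 and 84.8 CPM against 166, 134, 151 and 136 CPM, a log2 difference of -0.91 ± 0.07 (adjusted p = 1.63e-07). Cldn11, the tight junction protein of myelin, differed by -0.81, Mal by -0.80, Ermn by -0.77, Cnp by -0.64 and Mag by -0.56. Mbp, at 2999.7 to 3542 against 3938 to 4001 CPM, differed by -0.30 and was under the limit on size, as were Mobp at -0.44 and Opalin at -0.45. Of the 7 calls, 1 was lost without WT 5. Ugt8a, the enzyme that makes the galactolipids of myelin, was not listed and was at 77.9, 65.1, 67.0 and 88.7 CPM against 173.6, 143, 148 and 144 CPM, a log2 difference of -1.02 ± 0.10 (adjusted p = 1.60e-05).

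Neuronal lists had few calls. Of 12 granule cell genes, 1 was called higher and none lower (the same counts by DESeq2; 1 higher and 9 lower at an unadjusted p under 0.05), with a median log2 difference of -0.22. The exception was Grin2c, the NMDA receptor subunit of mature granule cells, at 500, 560, 500.2 and 471 CPM against 238, 267, 260.3 and 294 CPM, a log2 difference of 0.94 ± 0.07 (adjusted p = 5.12e-08). Neurod1, a transcription factor of granule cells, was at 314 to 383 against 428 to 501 CPM, which is a log2 difference of -0.41 and under the limit on size. Among 11 Purkinje cell genes, Itpr1 was called higher and Pcp4, a calmodulin regulator, lower. Itpr1 was at 4120, 3432, 3386 and 3332 CPM against 2190, 2331, 1910 and 2113 CPM, a log2 difference of 0.74 ± 0.07 (adjusted p = 2.00e-06). Pcp4 was at 5.97 to 6.51 against 8.51 to 10.5 CPM (-0.57), with the call lost when counts of 1 strand were used. Pcp2, a marker of all Purkinje cells, was at 109 to 127 against 142 to 183 CPM, a log2 difference of -0.38. Thus 1 gene of this list was called in each direction, and these 2 calls among 11 genes are to be read against 17.4% of all genes called.

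Among other neurons, Calb2, the calcium buffer calretinin, was at 462, 472, 429 and 468 CPM against 689.9, 678, 682 and 633 CPM, a log2 difference of -0.55 ± 0.05 (adjusted p = 4.33e-07). Eomes, the transcription factor of unipolar brush cells, was at 10.5, 12.6, 15.6 and 34.8 CPM against 48.9, 38.0, 26.3 and 40.6 CPM, with an overlap and an adjusted p of 0.085. Slc17a6, the glutamate transporter of neurons of the cerebellar nuclei, differed by -0.75 (adjusted p = 3.87e-04), and Spp1 by -0.40. No gene of the 6 for molecular layer interneurons was called (none by DESeq2; 2 higher and 1 lower at an unadjusted p under 0.05). Slc6a5, the glycine transporter of Golgi cells, was called at a log2 difference of 0.50, on the limit, and lost the call in 10 of 18 alternatives, among them DESeq2, counts of 1 strand and leaving out WT 3, WT 5, WT 6 or WT 7.

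Astrocyte and microglia lists had no calls, while vascular lists had several genes called lower, against 3.09% of all genes. None of 10 Bergmann glia and astrocyte genes was called by edgeR or DESeq2, with 5 lower and none higher at an unadjusted p under 0.05. The water channel Aqp4 was at 400 to 408 against 521 to 643 CPM, a log2 difference of -0.46. None of 10 microglia genes was called by edgeR or DESeq2, with 6 lower at an unadjusted p under 0.05 and a median log2 difference of -0.22. Of 8 endothelial genes, Cldn5, the main tight junction protein of the blood-brain barrier (-0.66), and Flt1, a VEGF receptor (-0.53), were called lower. Flt1 lost its call without WT 3 or WT 8. Cd34, a surface protein of endothelium outside the list, differed by -0.90. Of 5 mural cell genes tested, 3 were called lower and none higher (3 and none by DESeq2). Acta2, the smooth muscle actin, was called lower at -0.83. Pdgfrb, the receptor that marks pericytes, was at 19.6 to 23.5 against 16.3 to 17.3 CPM, a log2 difference of 0.34 that was not called. The mural genes Kcnj8 (-0.57) and Rgs5 (-0.53) were called lower, Kcnj8 not without WT 5 and Rgs5 not without WT 2, WT 3, WT 5 or WT 8.

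Of 5 red blood cell genes, edgeR called 1 lower in WT 1 to WT 4 and DESeq2 called 4. Hba-a2, an alpha globin gene, was at 5.69, 4.15, 4.37 and 4.75 CPM against 22.3, 9.54, 9.29 and 20.4 CPM, a log2 difference of -1.70 ± 0.36 (adjusted p = 7.78e-03). WT 5 and WT 8 were highest. The call was lost when WT 1, WT 2, WT 3, WT 4, WT 5 or WT 8 was left out. Hba-a2 and Hba-a1 are near-identical copies, and fragments that fit both are set aside as multimapping, so the level of each is uncertain. The beta globin Hbb-bs was at 45.6 to 54.7 against 63.7 to 179 CPM and was not called (adjusted p = 0.032), and Alas2, an enzyme of heme synthesis, overlapped between the sets (adjusted p = 0.089).

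Several chaperone genes were called lower, here and in the endoplasmic reticulum list below, against 3.09% of all genes tested. Of 11 heat shock and chaperone genes, 4 were called lower and none higher (4 and none by DESeq2; 11 and none at an unadjusted p under 0.05), with a median log2 difference of -0.43. Hspa8, the constitutive HSP70, was at 1284, 1209, 1163.1 and 1369 CPM against 2085, 2026, 1982 and 1815 CPM, a log2 difference of -0.65 ± 0.06 (adjusted p = 5.75e-07). Hspb1 (-0.73) and Dnajb1 (-0.51) were called as well, and Hsp90aa1 was at -0.14. Hspa5, the HSP70 of the endoplasmic reticulum (ER), was at 233, 222, 238 and 321 CPM against 409, 445, 419 and 412 CPM, a log2 difference of -0.73 ± 0.10 (adjusted p = 2.09e-04). Its call was lost when WT 6 and WT 7 were both left out.

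A list of 20 ER chaperone and unfolded protein response genes was then drawn up, after the values of several were seen. In it 8 were called lower and none higher (8 and none by DESeq2; 16 and none at an unadjusted p under 0.05). Sdf2l1, an ER chaperone cofactor, was at 8.49, 8.54, 10.4 and 14.9 CPM against 17.7, 25.4, 22.5 and 19.5 CPM, a log2 difference of -1.01 ± 0.21 (adjusted p = 5.34e-03), and lost its call without any of WT 1, WT 2, WT 3, WT 6, WT 7 and WT 8. Xbp1, a transcription factor of this response, differed by -0.85, Manf by -0.81, and the protein disulfide isomerases Pdia4 and Pdia3 by -0.80 and -0.73. Calr, the lectin chaperone calreticulin, differed by -0.70 and Dnajb11 by -0.60. Edem1 and Dnajc3 were at 0.03 and -0.00. The ER stress response element, here CCAAT followed by any 9 bases and CCACG, was searched on both strands in the 250 bases before the start of each gene that RefSeq gives for GRCm38.p6. It occurred in 7 of the 18 listed genes with such a window and in 0.13% of 27025 genes. Of the 7 listed genes that hold it, Hspa5 and Calr were called lower, and of the 11 without it 5 were. The windows of both called genes are shown 5′ to 3′ with the element in capitals. That of Hspa5 is chr2:34771840-34772089 on the plus strand, and that of Calr is chr8:84846932-84847181 on the minus strand, where the element reads in the reverse direction.
Hspa5: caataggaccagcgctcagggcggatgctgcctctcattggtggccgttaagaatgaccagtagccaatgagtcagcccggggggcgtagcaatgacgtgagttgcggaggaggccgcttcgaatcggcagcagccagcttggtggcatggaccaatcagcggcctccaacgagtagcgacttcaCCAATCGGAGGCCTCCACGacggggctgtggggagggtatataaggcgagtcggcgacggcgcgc
Calr: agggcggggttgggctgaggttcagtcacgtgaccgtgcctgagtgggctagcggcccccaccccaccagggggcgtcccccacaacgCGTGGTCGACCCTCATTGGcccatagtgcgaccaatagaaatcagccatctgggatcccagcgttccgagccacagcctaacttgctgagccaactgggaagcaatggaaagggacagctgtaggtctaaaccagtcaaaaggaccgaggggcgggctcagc
The match is a description of letters in these windows.

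Genes of ribosomes and respiration shifted by less than the limit on size. Of 80 cytosolic ribosomal protein genes, 74 had all 4 libraries of WT 1 to WT 4 below all of WT 5 to WT 8. The background for this is the same 23.6%. Of the 80, 4 were called lower, near the share of 3.09% over all genes. The 80 genes had a median log2 difference of -0.33. Rplp2, a protein of the ribosomal stalk, was at 70.5, 71.5, 70.2 and 73.6 CPM against 117, 111, 110.1 and 108 CPM and had the lowest adjusted p of the genes called lower, 3.78e-08. Among 83 nuclear respiratory chain genes, 67 did not overlap in the same direction and 12 were called lower, with a median of -0.32. Sdhc, a subunit of succinate dehydrogenase, differed by -0.58. Other genes with the lowest adjusted p were Sncb, the synaptic beta-synuclein (-0.61), Atp6v0d1, a subunit of the vacuolar proton pump (-0.60), Arpc4 of the Arp2/3 actin complex (-0.58), Atxn7l3b (-0.59) and Aig1 (-0.57).

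Reference genes of the kind used to scale measurements were not level between the sets. Gapdh was at 1380 to 1492 against 1675 to 1777 CPM, a log2 difference of -0.30 ± 0.05 (adjusted p = 8.85e-05). Actb differed by -0.30, Ppia by -0.43 and Ywhaz by -0.50, none past the limit on size. Ywhaz was called in the DESeq2 fit. Of 10 reference genes, 1 was called lower and none higher. Tbp, at 46.3 to 48.0 against 42.2 to 45.8 CPM, differed by 0.11 and Polr2a by 0.24, and neither was called. Atxn1, the gene of the disease, was at 48.7 to 54.0 against 47.1 to 60.7 CPM, with an overlap and an adjusted p of 0.11. Cic, the repressor that ATXN1 binds, was at 221 to 238 against 147 to 182 CPM and was called at a log2 difference of 0.50, on the limit, with the call lost in 8 of 18 alternatives, among them DESeq2 and leaving out WT 1, WT 2, WT 4, WT 5 or WT 7.

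Calls in the clock, stress, immediate early and cholesterol lists are to be read against 17.4% of all genes called, 14.3% higher and 3.09% lower. The counts describe the lists only. Per3, a period gene, was at 87.9, 86.8, 80.8 and 65.0 CPM against 41.7, 41.4, 40.4 and 46.5 CPM, a log2 difference of 0.92 ± 0.09 (adjusted p = 3.77e-06). Nfil3, a repressor of clock output, differed by -0.57. Of 18 clock genes, 2 were called higher and 1 lower, and those not called included Per1, Per2, Dbp, Arntl and Nr1d1, all with overlapping sets. Of 12 glucocorticoid-responsive genes, Nfkbia (-0.59) and Cdkn1a (-0.60) were called lower, Cdkn1a not without WT 6. Of 12 immediate early genes tested, Fosb alone was called, at 0.536 to 1.11 against 0.880 to 2.48 CPM, and lost the call without WT 1, WT 2, WT 3, WT 5, WT 7 or WT 8. Of 15 cholesterol synthesis genes, Fdps alone was called, at 0.873 to 1.18 against 0.310 to 0.428 CPM, a level far below that of Hmgcs1 at 131 to 198 CPM.

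Several other lists had few or no calls. None of 6 genes of oligodendrocyte precursors was called by edgeR or DESeq2 (1 higher and 4 lower at an unadjusted p under 0.05), and none of 5 genes of the Purkinje cell zebrin stripes (2 higher and 2 lower at that p). Among 27 replication-dependent histone genes 1 was called lower, among 13 mitochondrially encoded protein genes 1 (mt-Nd3, a subunit of complex I), and among 5 ependymal genes 1 (Rarres2, the chemerin gene), with no gene of these lists called higher. Rarres2 differed by -0.62, and with counts of 1 strand by -0.26 with no call.

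**Figure D5:**
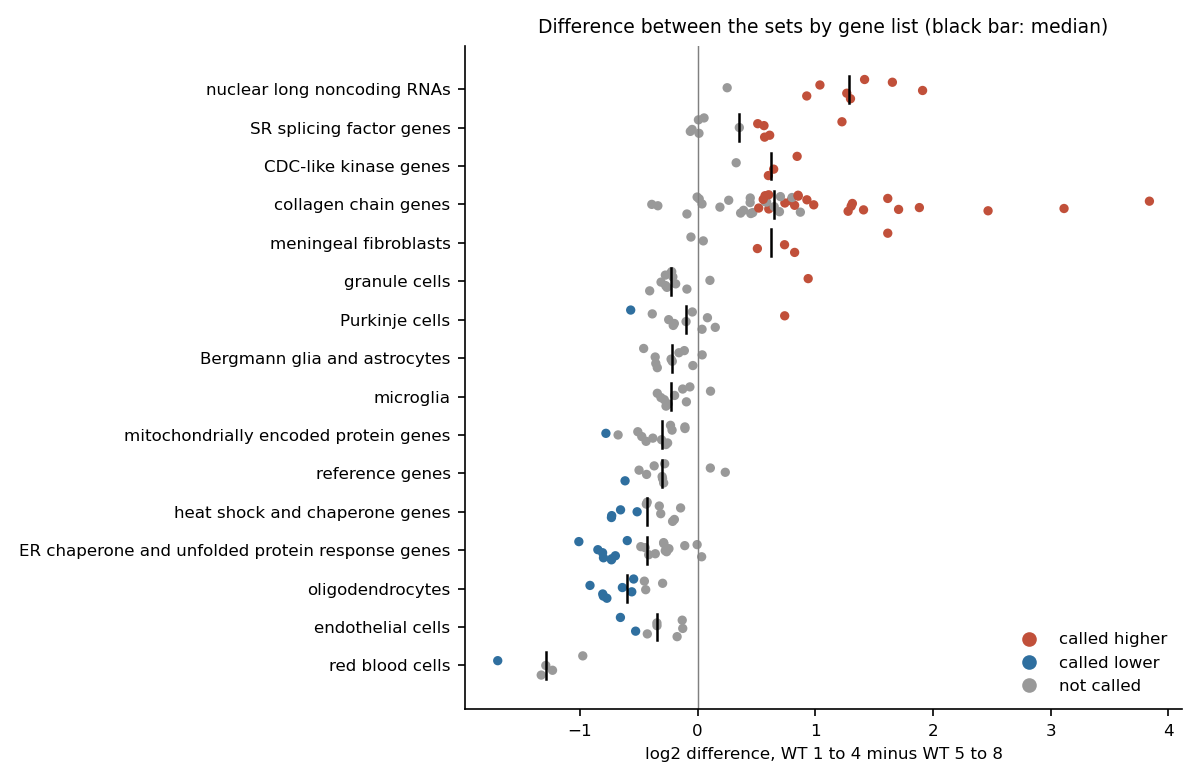
Log2 difference of WT 1 to WT 4 minus WT 5 to WT 8 (x axis) for every tested gene of 16 lists, 1 point per gene, colored by its call, with the median of a list as a black bar. Nuclear long noncoding RNAs have a median of 1.28 and oligodendrocyte genes of -0.60.

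The 16 libraries of the other genotypes were split by the same 8% limit and share no library with the WT comparison. There 12 libraries (sca1, sca1-s776a and double) were over 8% and 4 (2q-s776a) under it, so genotype and set cannot be told apart. Of 22038 genes tested, 3846 (17.5%) were higher and 5.28% lower in the libraries over 8%. Genes higher in both comparisons numbered 2495, which is 84.8% of those higher in WT and 64.9% of those higher in the other genotypes. Genes lower in both numbered 408, which is 64.2% and 35.1%. No gene was called in opposite directions. The genes called higher in WT had a median log2 difference of 1.15 in WT and 1.09 in the other genotypes, and those called lower -0.65 and -0.60. Col7a1 differed by 3.84 and 3.82, Leng8 by 2.43 and 2.66, Meg3 by 1.91 and 2.33, Srsf5 by 1.23 and 1.25, and Mog by -0.91 and -0.89. Nfil3, at -0.57 in WT, was at -0.13 with an adjusted p of 0.46 in the other genotypes. Whether Nfil3 differs between the comparisons was not tested.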

How the data were processed

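For each library the authors deposited unnormalized counts of fragments per gene, written by STAR 2.7.2d against GRCm38.p6 from reads trimmed in Trimmomatic 0.36. They corrected for batch at a later step, so the counts used here carry no correction. The annotation release was not given in the sources used here. Of 54232 genes listed, 54165 matched GENCODE M21, and 1 row that names no mouse gene was left out of totals and tests. Unstranded counts (column 2) of 8 WT libraries were compared by quasi-likelihood tests in edgeR 4.0.16 and R 4.3.3 (TMM, robust, filterByExpr), with the 4 libraries over 8% N_noFeature against the 4 under it, and adjusted by Benjamini-Hochberg over 20593 genes. DESeq2 1.42.0 was an alternative. TMM factors were 0.972 to 1.03. The chi-square of a pair of libraries, divided by its degrees of freedom, was 7.87 to 40.7 within sets and 73.9 to 148 between sets. Every pair thus differed by more than counting noise, which does not show separate mice, litters or extractions. Each library was treated as a separate sample. The chi-square covers the genes of a pair together and does not show that each gene differs by more than counting noise.

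Members, lists and the split were chosen with earlier results of these data known. Named genes are the 15 highest nuclear genes by CPM and by TPM, the 8 genes per direction with the lowest adjusted p and the 5 with the largest change at a mean of at least 10 CPM among called genes whose sets did not overlap, the 10 most and 5 least variable, and members of the lists. The collagen, SR, CDC-like kinase and ER lists and the miRNA loci were chosen after values were seen. Ugt8a and Cd34 come from the rule on size. The mean of at least 10 CPM covers both sets. Col7a1, Col5a1, AI480526, Cd34 and Hba-a2 reached it only through the set where they are high. The fits were also tested on simulated counts. Results for some genes are not reported here.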

Additional observations from a re-analysis of the deposited data

How the results depend on the processing

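Counts of genes higher and lower in WT 1 to WT 4 stayed within 1.5 times 2942 and 636 with RLE or upper-quartile factors, DESeq2, no filter on low counts, counts of 1 strand, all 24 libraries with genotype in the fit, Xist as a covariate, mitochondrially encoded genes left out and each WT library left out. Leaving out both libraries with Xist, chosen after seeing the data, gave 2731 and 653. Only genes with a mean of 1 CPM or more gave 1684 and 351, of fewer genes tested. An adjusted p under 0.05 with no limit on size gave 5516 and 5314, and a log2 limit of 1 gave 1725 and 87, both by construction. In the other genotypes, DESeq2 and leaving out the sca1 libraries moved neither count by over 1.5 times.

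For the mapping shares, leaving out 1 library leaves 4 against 3, which cannot go below p = 0.057 (exact permutation test), so no measure could pass. The differences then were 0.563 to 0.818 points for unmapped, -0.832 to -0.570 for multimapping, -0.136 to -0.0771 for ambiguous and -1.41 to -1.07 for the 100 most counted genes. Per fragment counted on genes, multimapping differed by -0.586 points (p = 0.086, exact permutation test) and ambiguous by 0.272.

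Of 80 named genes called, none changed direction in 1438 alternative fits, and the call was lost in 83 of these. DESeq2 ended 3 calls (Cic, Slc6a5 and Slc6a13), counts of 1 strand 6 (Igf2, Pcp4, Rarres2, Rgs5, Slc6a13 and Slc6a5), and all 24 libraries 9 (Acta2, Cic, Cldn5, Flt1, Fosb, Igf2, Slc17a6, Slc6a13 and Slc6a5). The log2 ratio of a list's summed level between the sets moved by less than 1 SD in 309 alternatives over 35 lists and by more in 6, which all left out the TMM factors. TPM of the 15 highest genes moved by less than 1 SD in 14 alternatives and by more in 16, of which 9 used the length of the longest transcript and 7 left out mitochondrially encoded genes. No paired analysis was possible because the WT labels form 1 group with no shared replicate numbers. Genes under about 1 CPM rest on the fewest counts.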
